A study of Homo sapiens with 4 samples.

Results

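The genes of the translation initiation and elongation factors were followed in K562 cells treated for 3 h with clofarabine or with its solvent. K562 is an established cell line of human erythroid leukaemia. A gene was taken as a factor when its symbol had no hyphen and began with EIF followed by a digit from 1 to 6, or with EEF followed by 1 or 2. The EIF2AK genes, which encode the kinases of eIF2, were left out. This rule found 61 of the 23615 genes in the deposited table. The clofarabine group held 2 samples treated with 5 µM of the drug, a deoxyadenosine analogue that inhibits ribonucleotide reductase and DNA polymerases once phosphorylated, and the control group held 2 samples treated with DMSO. Both groups were cells of the same line, and no genotype or further agent is given in the labels. The conditions are headed C and V in the table, read here as clofarabine and vehicle, with libraries C0 and C1 against V0 and V1. If the letters meant the reverse, every sign given here would flip. Nothing in the labels ties the samples to cultures grown apart, and the p-values therefore rest on a spread between samples that may be technical.

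Translation begins when eIF2 brings the initiator tRNA to the small ribosomal subunit together with eIF1, eIF1A, eIF3 and eIF5, while the eIF4F complex binds the cap of the mRNA and recruits that assembly. After the start codon is found, eIF5B joins the large subunit, and then eEF1A delivers each aminoacyl-tRNA and eEF2 moves the ribosome along. The supply of active eIF2, which the exchange factor eIF2B recharges, and of free eIF4E, which the 4E-binding proteins hold back, are the main control points, and many of the mRNAs for these factors carry a terminal oligopyrimidine (TOP) start through which mTOR signalling sets their own translation.

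The libraries held between 8370550 and 23888755 estimated fragments, and the share of the factor genes was 4.33% and 4.51% with clofarabine (C0, C1) and 4.38% and 4.45% with DMSO (V0, V1). HBE1, the embryonic globin gene that marks the line, stood between 20951 and 25350.5 FPKM (fragments scaled by transcript length and library size). CD3E, CD14 and COL1A1 stood at 0.363 FPKM or less and MS4A1 at 0 in every library, while EPCAM, an epithelial marker, stood between 45.4 and 48.4. C1 was the deepest library. Cut by transcript length into 10 classes, its shortest genes stood higher against its longest than in the other libraries. This contrast was 0.24 on the log2 scale for C1 over V0, 0.19 for C1 over V1 and −0.22 for C0 over C1, and it was 0.033 for C0 over V0 and −0.030 for C0 over V1.

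No factor gene passed the test for a change after clofarabine, and the fold changes of most had narrow intervals. Of the 54 factor genes that could be tested, none rose and none fell at a Benjamini-Hochberg adjusted p under 0.05 by edgeR's quasi-likelihood test, where 2.57% of all 11761 genes tested were called (1.54% higher and 1.03% lower). Those calls were 181 higher and 121 lower, but 170 and 200 with library sizes alone as the scaling and 273 and 102 with a trend on transcript length removed, and no factor gene was among any of them. At an adjusted p under 0.1, 1 factor gene (EIF3E) passed, where 3.96% of all genes did. DESeq2, limma-voom and limma on log2 FPKM also called none, and 10 of the 54 had an unadjusted p under 0.05 by edgeR, or 18.5% where 14.2% of all genes did. Without library C0, C1 was the only clofarabine library, and the median log2 fold change of the 54 factor genes was 0.090. With all libraries it was 0.045, and without C1 it was −0.0091. Of the 54 factor genes, 9 were higher with clofarabine at an unadjusted p under 0.05 by edgeR, where 8.17% of all genes were. The remaining 1 of the 10, EIF3F, was lower. Among all genes at that unadjusted p, 961 of 1674 were higher. The log2 fold changes, clofarabine over DMSO, lay between −0.33 for EIF5AL1 and 0.22 for EIF3E. The 95% interval of the fold change lay within 1.5-fold in either direction for 52 of the 54 genes, as it did for 72.2% of all genes tested, and the exceptions were the weakly expressed EIF4E3 and EIF5AL1. Of genes with a mean of at least 100 CPM (fragments scaled by the TMM-adjusted library size, not by length), it did for 42 of 42 factor genes and for 2218 of all 2249. In bulk RNA, fewer cells with a transcript and less of it per cell cannot be told apart.

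**Figure D1:**
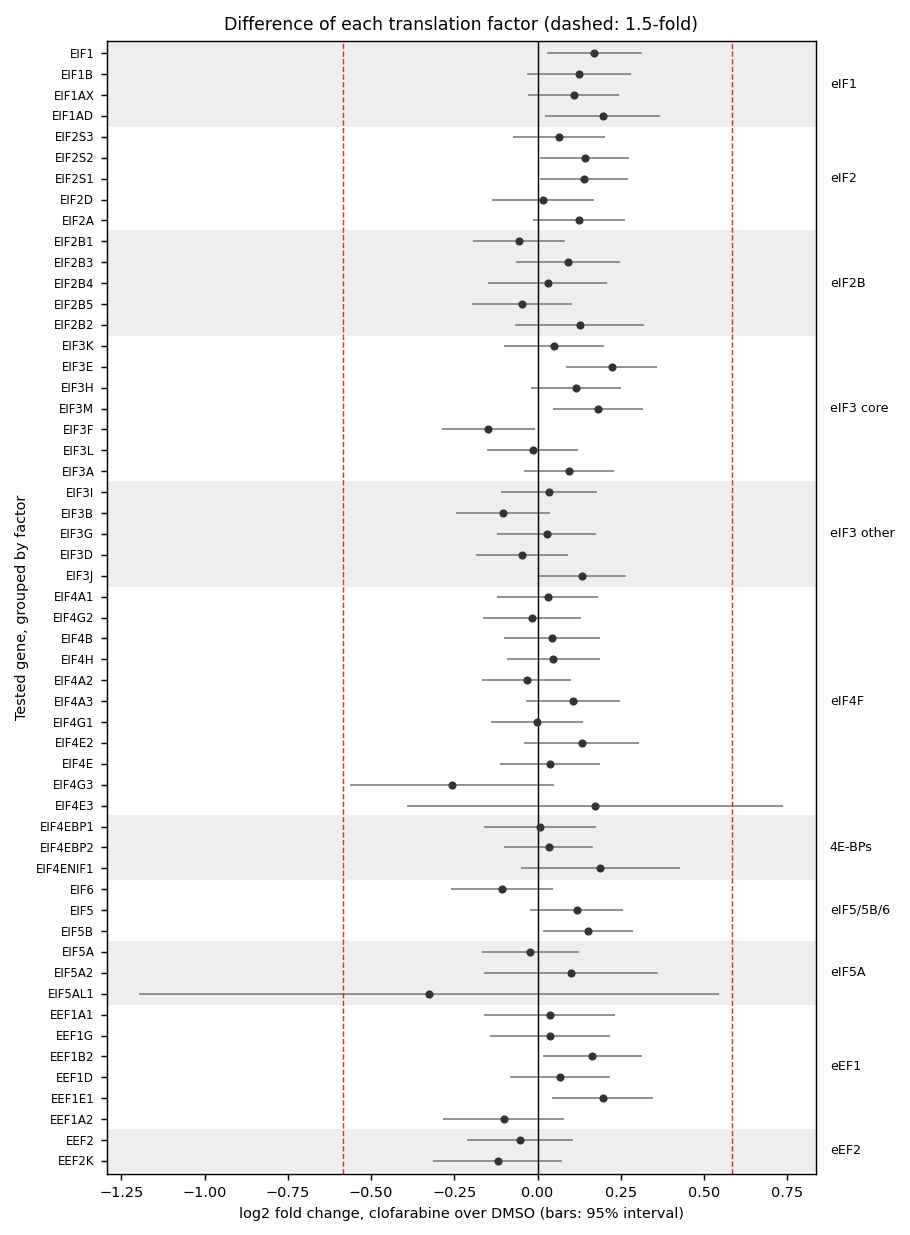
Log2 fold change (clofarabine over DMSO, x axis) of each of the 54 tested factor genes (y axis), grouped by factor and ordered by level within a group; bars are 95% intervals from edgeR and dashed lines mark 1.5-fold. All points lie between −0.33 and 0.22, and the bars of only EIF4E3 and EIF5AL1 cross a dashed line.

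A small lean upwards was seen in the direction of the fold changes. Of the 54 genes, 38 had a log2 fold change above 0, or 70.4% beside 50.6% of all genes tested. With library sizes alone 29 were (53.7% beside 41.3% of all genes), and without C1 26. The median was 0.045, against 0.0020 for all genes, and −0.0091 without C1. Among the 42 factor genes with a mean of at least 100 CPM, 30 were above 0, or 71.4% beside 58.1% of all genes at that level. None of these 42 was called, where 6.27% of all genes at that level were, and 9 (21.4%) had an unadjusted p under 0.05 by edgeR, where 22.1% did. Clofarabine and DMSO libraries were fully separate for 28 of the 54 genes, or 51.9% beside 43.2% of all genes, with 22 higher (22.0% of all genes) and 6 lower (21.3%). At 100 CPM or more they did not overlap for 21 of 42 beside 52.2%. The 2 shortest of the 10 length classes held 8 and 10 of the factor genes, of which 7 and 8 were above 0, and in those classes 69.0% and 57.6% of all genes were above 0. With a trend on length removed, 43 of the 54 factor genes were above 0 with a median of 0.097, against 0.046 for all genes, of which 60.9% were above 0.

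**Figure D2:**
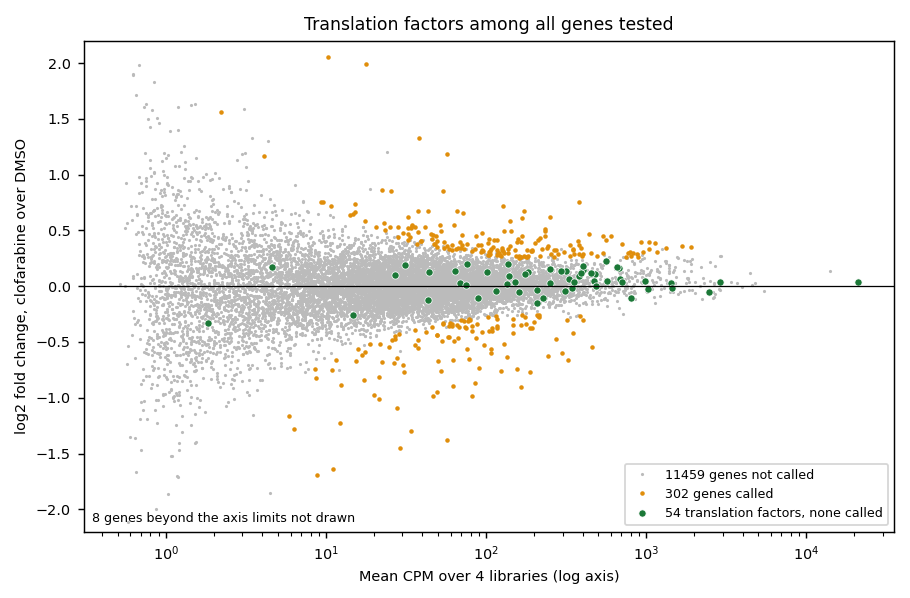
Log2 fold change (clofarabine over DMSO) against the mean CPM of the 4 libraries (log axis) for every tested gene: 11459 genes not called in grey, 302 called genes in orange and the 54 factor genes in green. Most factor genes lie at high levels, with 42 of 54 at a mean of at least 100 CPM beside 2249 of all 11761 genes tested. The factor genes lie inside the grey band at their level, and 8 genes lie beyond the axis limits.

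The transcript starts of the factor genes were read to see which carry a TOP-like start, a feature the selection did not use. In RefSeq (GRCh38.p14), 49 of the 61 genes had an entry, and 12 of them (24.5%) had a start at which the first transcribed base is a C followed by at least 4 bases that are each C or T, read on the transcribed strand only. This start was present in 5.14% of the 27305 genes of that table and in 7.66% of the 8639 that were tested here. A gene with several RefSeq starts was counted by the one with the longest run. The 30 bases around the start, 10 before it and 20 from it on, are shown for 8 factors with this start whose values are described here and for a pair without it, with the run of pyrimidines in capitals.
EEF1A1: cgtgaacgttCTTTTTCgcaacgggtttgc
EEF1B2: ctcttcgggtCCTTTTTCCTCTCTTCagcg
EEF2: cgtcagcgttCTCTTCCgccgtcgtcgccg
EIF4B: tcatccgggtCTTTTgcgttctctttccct
EIF3F: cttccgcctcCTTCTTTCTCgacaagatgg
EIF3M: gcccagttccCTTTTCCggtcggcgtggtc
EIF3K: tttccaccacCTCTTCCTgttcccgtcctt
EIF2S3: gatttccttcCTCTTTTggcaacatggcgg
EEF1G: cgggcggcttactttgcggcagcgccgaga
EIF4E: tggagcggttgtgcgatcagatcgatctaa
In GRCh38.p14 these are chr6:73521013-73521042 (EEF1A1, minus strand), chr2:206159885-206159914 (EEF1B2, plus), chr19:3985444-3985473 (EEF2, minus), chr12:53006446-53006475 (EIF4B, plus), chr11:7987327-7987356 (EIF3F, plus), chr11:32583821-32583850 (EIF3M, plus), chr19:38619178-38619207 (EIF3K, plus), chrX:24054946-24054975 (EIF2S3, plus), chr11:62573872-62573901 (EEF1G, minus) and chr4:98929114-98929143 (EIF4E, minus). The longest run, 16 pyrimidines, was that of EEF1B2, whose other RefSeq start had a run of 0. EIF4B had the shortest of those counted, 5. The other genes with the start were EIF2A, EIF2D, EIF3D and EIF4A2. EEF1G is known as a TOP mRNA, but its RefSeq start is an A, which says only that the letters are not at this position.

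Factor genes with the pyrimidine start had the higher median level and nearly the same median difference, neither of which was tested. Their median level was 228 FPKM over 12 genes, from 48.7 to 6151, and that of the 33 tested genes with another start was 82.6 FPKM. Of the 12 genes, 8 had a log2 fold change above 0 with a median of 0.040, and of the 33 genes 23 did with a median of 0.048. Among all tested genes with that start, 55.4% of 662 were above 0 with a median of 0.022, and 39 of the 662 were called. Among those with another start, 50.4% of 7977 were above 0 with a median of 0.0012, and 199 of the 7977 were called. This difference in calls was not tested. The log2 fold changes of the 12 factor genes with the start ran from −0.15 for EIF3F to 0.18 for EIF3M. Of 9 factor mRNAs known as TOP mRNAs (EEF1A1, EEF1B2, EEF1D, EEF1G, EEF2, EIF3E, EIF3F, EIF3H and EIF4B) none was called, 7 were above 0 and the median was 0.043, against 0.048 for the 45 other tested genes.

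**Figure D3:**
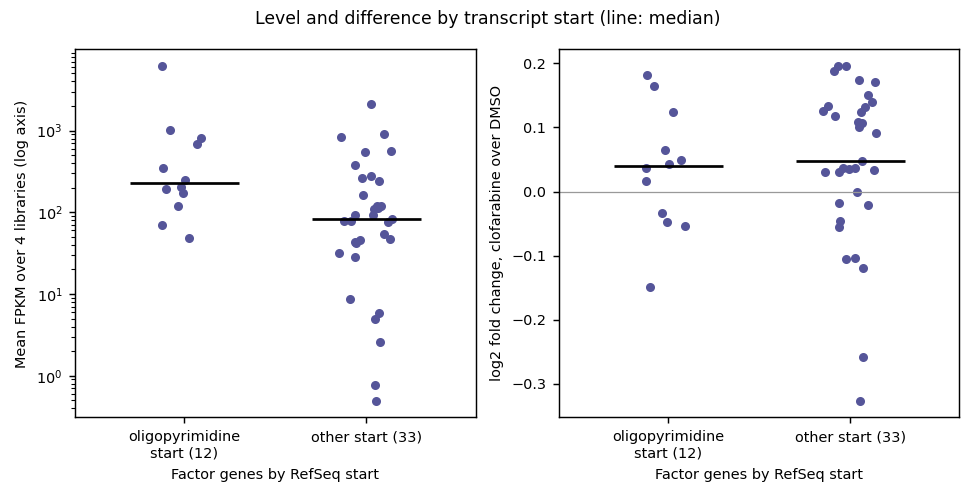
Mean FPKM over the 4 libraries (left, log axis) and log2 fold change, clofarabine over DMSO (right), of the factor genes with a pyrimidine start (12) and with another start (33) in RefSeq; lines are medians. The medians are 228 and 82.6 FPKM on the left, and 0.040 and 0.048 on the right.

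In the eIF1 family, all 4 tested genes had both clofarabine libraries above both DMSO libraries, and none was called. This pattern was shown by 22.0% of all genes, and by 740 of the 2249 genes with a mean of at least 100 CPM. EIF1, which keeps the scanning ribosome from starting at the wrong codon, stood at 675 CPM and 718 with clofarabine (C0, C1), above 603 and 635 with DMSO (V0, V1). Its log2 fold change was 0.17 (SE 0.068, edgeR adjusted p = 0.239). EIF1AD, a protein related to eIF1A whose value was chosen after it was seen, stood at 75.7 and 86.3 CPM with clofarabine and at 71.9 and 70.1 with DMSO (0.20, SE 0.084, edgeR adjusted p = 0.282). Without C0 both were called, at an edgeR adjusted p = 0.0189 for EIF1 and 0.0451 for EIF1AD. Without C1 the log2 fold change was 0.12 for EIF1 (edgeR adjusted p = 0.353) and 0.090 for EIF1AD (0.750). By level, EIF1 (523 to 621 FPKM) stood above EIF1B (114 to 131), its close paralogue, and the ranges of EIF1B and EIF1AX (103 to 116 FPKM), the gene of eIF1A, overlapped. The median log2 fold change of the family was 0.15, and between 0.11 and 0.17 when any library was left out.

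The eIF2 complex binds GTP and the initiator tRNA, and its 3 subunits all had a positive log2 fold change with no overlap between the groups. So did 22.0% of all genes, and 740 of the 2249 genes with a mean of at least 100 CPM, the level of these subunits. EIF2S2, the beta subunit, stood at 414 and 431 CPM in C0 and C1 and at 388 and 379 in V0 and V1, which gave 0.14 on the log2 scale (SE 0.065, edgeR adjusted p = 0.321). EIF2S1, the alpha subunit on which stress kinases act, was picked with its value in view and had the same change of 0.14 (SE 0.064, edgeR adjusted p = 0.321), with 326.5 and 331 CPM against 302 and 295. EIF2S3, the gamma subunit that holds GTP, was the most abundant, at 706 and 702 CPM with clofarabine and 690 and 656 with DMSO (0.065, SE 0.067, edgeR adjusted p = 0.744). Per length, EIF2S3 stood 2.57 to 2.77 times above EIF2S1 in the 4 libraries, in the order EIF2S3 (205 FPKM on average), EIF2S2 (164) and EIF2S1 (77.1). EIF2A and EIF2D, which can deliver tRNA to the ribosome without eIF2, followed at 48.7 and 70.0 FPKM. All 5 genes were above 0. Their median was 0.12 on the log2 scale, and 0.071 without V1.

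The 5 subunits of eIF2B, which reloads eIF2 with GTP, showed no common direction. EIF2B2, the beta subunit, had the smallest p in the group, with 44.3 and 46.8 CPM in C0 and C1 against 41.7 and 41.9 in V0 and V1 (log2 fold change 0.13, SE 0.093, edgeR adjusted p = 0.607). EIF2B1, the alpha subunit, was the most abundant by FPKM and stood at 154 and 159 CPM with clofarabine and 165 and 161 with DMSO (−0.056, SE 0.067, edgeR adjusted p = 0.787). The groups did not overlap in either gene, in opposite directions. Levels ran from 31.8 FPKM for EIF2B2 to 93.3 for EIF2B1. EIF2B1 overlapped across libraries with EIF2B3 (82.6 on average), and EIF2B4 (43.1) with EIF2B5 (41.6). The group median was 0.031 and became −0.0080 with library sizes alone, −0.060 without C1 and −0.020 without V1.

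eIF3 is the largest initiation factor, a scaffold that holds the small subunit and the mRNA together, and its tested subunits differed from each other in direction. EIF3E had the smallest p of all factor genes. It stood at 593 CPM in C0 and 616 in C1, above 528 in V0 and 509 in V1, a log2 fold change of 0.22 (95% interval 0.085 to 0.36, edgeR adjusted p = 0.0825). It was called by edgeR with no filter on low counts (adjusted p = 0.0331), where 478 of 16865 genes were called. Its log2 fold change was 0.25 without C0, 0.19 without C1, 0.25 without V0 and 0.19 without V1. EIF3M, another core subunit chosen after its value was seen, stood at 417 and 442 CPM against 381 and 377 (0.18, SE 0.065, edgeR adjusted p = 0.178). EIF3F, chosen in the same way, stood lower in both clofarabine libraries, at 189 and 203 CPM against 211 and 224 (−0.15, SE 0.067, edgeR adjusted p = 0.317).

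Outside the core octamer, EIF3J, a loosely bound subunit of the decoding site, had the smallest p. It stood at 307 and 305 CPM in C0 and C1 and at 286 and 273 in V0 and V1 (log2 fold change 0.13, SE 0.065, edgeR adjusted p = 0.362). EIF3I, a subunit of the peripheral module, had the highest FPKM of that group, and stood at 690 and 749 CPM with clofarabine and 687 and 718 with DMSO, which overlap (0.035, SE 0.069, edgeR adjusted p = 0.891). Of the 12 tested eIF3 subunits 8 had a log2 fold change above 0 and 4 below, with a median of 0.042.

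The mRNA levels of eIF3 subunits spanned a wide range per length. The subunits are thought to be present in equal numbers in the complex, but that concerns protein, which was not measured here. EIF3K, a small core subunit, was highest at 639 and 738 FPKM in C0 and C1 and 682 and 652 in V0 and V1, with CPM values of 444, 514, 473 and 454 in that order (log2 fold change 0.049, SE 0.073, edgeR adjusted p = 0.839). EIF3A, the largest subunit, was the lowest of those tested, between 68.5 and 76.5 FPKM, so that EIF3K stood 8.60 to 9.64 times above it. Between them, EIF3I (534 to 579 FPKM) and EIF3E (379 to 459) did not overlap, while EIF3H (331 to 370) and EIF3M (323 to 379) did.

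EIF3C, a core subunit, and its copy EIF3CL were nearly without fragments. EIF3C was given between 1.76 and 4.24 estimated fragments in a library and EIF3CL between 1.24 and 2.76, too few to be tested. In GENCODE 29, 96.8% of the 50-base words of the longest EIF3C transcript were also found in EIF3CL, and 98.8% of those of EIF3CL in EIF3C. The treatment of fragments that match both genes during counting is not given here, so no level of eIF3c can be read from these values.

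In the cap-binding group, 11 genes were tested, none was called and none had an unadjusted p under 0.05. EIF4A1, the main RNA helicase of eIF4F, stood at 1379 and 1507.5 CPM in C0 and C1 and at 1404 and 1421 in V0 and V1, so that the groups overlapped (log2 fold change 0.031, 95% interval −0.12 to 0.18, edgeR adjusted p = 0.912). EIF4G3, a rare paralogue of the scaffold eIF4G1, had the smallest p, with 14.4 and 12.7 CPM against 15.7 and 16.5 (−0.26, SE 0.15, edgeR adjusted p = 0.468). EIF4E, the cap-binding protein itself, ranged from 141 to 159 CPM with the groups overlapping, and EIF4G1 from 472 to 505 CPM. EIF4B, which stimulates the helicase, stood at 975 and 1028 CPM with clofarabine and 983.5 and 961 with DMSO, which overlap (0.043, SE 0.069, edgeR adjusted p = 0.856).

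Per length, the mRNA of the helicase stood well above the mRNAs of the cap-binding protein and the scaffold. Protein was not measured. Of the 50-base words of the longest EIF4A1 transcript, 95.1% occurred in other annotated genes, so that its level is uncertain. EIF4A1 stood at 803 to 877 FPKM, which was 16.7 to 19.9 times EIF4E and 8.80 to 9.29 times EIF4G1 in the same library. EIF4G2, which lacks the eIF4E-binding part of eIF4G1, was 3.96 to 4.38 times as high as EIF4G1. The paralogue EIF4A2 was lower than EIF4A1 by a factor of 6.65 to 7.49, and EIF4E2, a cap-binding relative linked to repression, was higher than EIF4E, whose FPKM was 0.565 to 0.630 of it. These ratios had ranges that overlapped between clofarabine and DMSO, with the exceptions of EIF4E to EIF4E2, lower in both clofarabine libraries, and EIF4A1 to EIF4G1, higher in both. Neither was tested. Such separation was not particular to them. EIF2S3 to EIF2S1 was 2.62 and 2.57 with clofarabine and 2.77 and 2.70 with DMSO. EEF1A1 to EEF1A2 was 138 and 133 with clofarabine and 131 and 115 with DMSO.

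Among the proteins that bind eIF4E, EIF4EBP1, the best-known target of mTOR in initiation, did not differ beyond the spread between libraries. It stood at 71.8 and 78.1 CPM in C0 and C1 and at 72.1 and 77.3 in V0 and V1 (log2 fold change 0.0076, 95% interval −0.16 to 0.18, edgeR adjusted p = 0.988). EIF4ENIF1, which shuttles eIF4E into the nucleus, had the smallest p, at 33.8 and 32.3 CPM against 26.4 and 31.2 (0.19, SE 0.11, edgeR adjusted p = 0.505). EIF4EBP2 was the more abundant by CPM, from 348 to 363, but at 47.2 FPKM on average lower per length than EIF4EBP1 at 111. EIF4EBP3 was not tested, with 26.7 estimated fragments in C1, 6.21 in V0 and under 1 in C0 and V1. The gene model that joins it to ANKHD1 was given 337 to 703 fragments.

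For the factors of start-site choice and subunit joining, EIF5B, the GTPase that joins the subunits, stood at 259 and 270 CPM in C0 and C1, above 243 and 234 in V0 and V1 (log2 fold change 0.15, SE 0.065, edgeR adjusted p = 0.285). EIF6, which keeps free large subunits from joining, overlapped between the groups at 201 and 233 CPM against 225 and 243 (−0.11, SE 0.074, edgeR adjusted p = 0.585). EIF5A, a factor modified by hypusine that eases elongation through difficult stretches, stood at 1026 and 1019 CPM against 1002 and 1073 (−0.022, 95% interval −0.17 to 0.12, edgeR adjusted p = 0.938). Its paralogue EIF5A2 stood at 30.7 and 25.1 CPM against 25.1 and 26.4 (0.10, SE 0.13, edgeR adjusted p = 0.800), and EIF5A was 162 to 201 times higher per length. Of the 50-base words of the longest EIF5A transcript, 30.1% were found in EIF5AL1, and 11.6% of those of EIF5AL1 were found in EIF5A. The values of EIF5AL1, highest at 2.24 CPM in V0, carry the uncertainty of how such fragments were assigned.

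**Figure D4:**
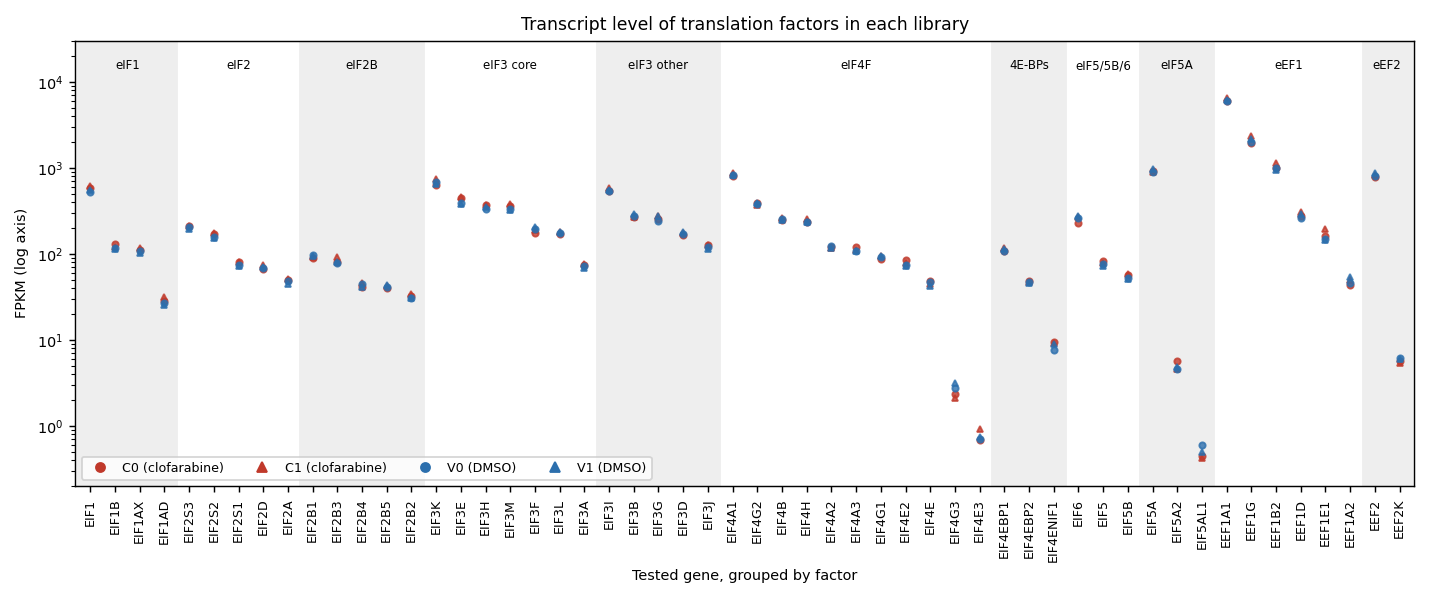
FPKM (log axis) of each of the 54 tested factor genes in the 4 libraries, grouped by factor and ordered by mean level within a group; red marks clofarabine and blue DMSO, circles the libraries numbered 0 and triangles those numbered 1. EEF1A1 is highest at 5912 to 6538 FPKM, EIF5AL1 lowest at 0.429 to 0.601, and the 4 libraries lie close together for most genes.

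None of the 8 tested elongation factor genes was called, and EEF1A1, EEF1G and EEF1B2 had the highest FPKM of all factor genes. EEF1A1, which carries aminoacyl-tRNA to the ribosome, stood at 20076 CPM in C0 and 22248 in C1, and at 20484 in V0 and 20796 in V1. The clofarabine libraries lay on either side of the DMSO libraries, and the log2 fold change was 0.036 (95% interval −0.16 to 0.23, edgeR adjusted p = 0.922). EEF2, the translocase, stood at 2362 and 2496 CPM against 2420 and 2622, which overlap (−0.054, SE 0.077, edgeR adjusted p = 0.832). EEF2K, the kinase that switches eEF2 off, was lower in both clofarabine libraries, at 42.5 and 40.2 CPM against 45.8 and 44.0 (−0.12, SE 0.094, edgeR adjusted p = 0.639).

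The eEF1 group holds eEF1A, the exchange complex that recharges it, and EEF1E1, a small scaffold protein of the tRNA synthetase complex included by its symbol. EEF1E1 had the smallest p of the group. It stood at 138 and 155 CPM in C0 and C1 against 128 and 129 in V0 and V1 (0.20 on the log2 scale, SE 0.073, edgeR adjusted p = 0.191). Without C0 this was 0.27 (edgeR adjusted p = 0.0136) and without C1 0.11 (0.590). The gene model that joins it to MUTED was given 153 and 863 fragments with clofarabine (C0, C1) and 9.09 and 279 with DMSO (V0, V1). With these added the log2 fold change was 0.28 (edgeR adjusted p = 0.143). EEF1B2, the exchange factor proper, was picked with its value in view and stood at 673 and 766 CPM against 652 and 632 (0.17, SE 0.072, edgeR adjusted p = 0.299). Without C0 its log2 fold change was 0.25 (edgeR adjusted p = 0.00225) and without C1 0.066 (0.708). Both genes belong to the shortest of the 10 length classes, the one in which C1 stood higher than the other libraries. With the length trend removed their log2 fold changes were 0.19 for EEF1E1 and 0.13 for EEF1B2, neither called.

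Within the eEF1 group the order per length was EEF1A1 (6151 FPKM on average), EEF1G (2107.5), EEF1B2 (1022), EEF1D (283), EEF1E1 (162) and EEF1A2 (47.8). No neighbours in this order overlapped across libraries. EEF1A1 was 115 to 138 times as high as EEF1A2, the paralogue of muscle and neurons, and 7.08 to 7.96 times as high as EEF2. Of the 50-base words of the longest EEF1A1 transcript, 29.4% occurred in 28 other genes, and 26.0% in the pseudogene EEF1A1P5, so that its level carries the uncertainty of how such fragments were assigned. The same holds for EEF1B2, of which 45.0% of words occurred in other annotated genes. For EEF1G and EIF4A1 it was 98.7% and 95.1%, with 96.7% in the gene model AP002990.1 alone and 91.7% in AC016876.2 alone. Whether these models are copies elsewhere or cover the same locus was not examined.

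**Figure D5:**
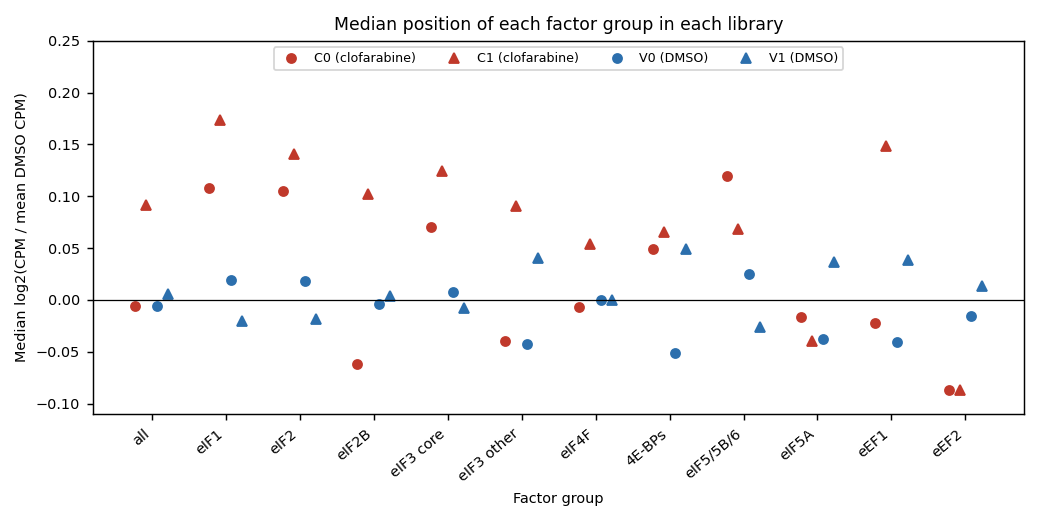
Median over the tested genes of each factor group of log2(CPM / mean DMSO CPM) in each library (y axis), for all factor genes and for each group (x axis); red marks clofarabine and blue DMSO. Over all factor genes C0 lies at −0.0060 and C1 at 0.091. Both clofarabine libraries lie above both DMSO libraries in the eIF1, eIF2, eIF3 core, eIF5/5B/6 and, narrowly, 4E-BP groups. They lie below them in the eEF2 group, which holds 2 genes. This separation was not tested, and 43.2% of all single genes tested had no overlap.

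Taken by factor and library, the medians set C1 apart from C0 in several groups. Over all tested factor genes the median deviation from the DMSO mean was −0.0060 in C0 and 0.091 in C1, against −0.0063 in V0 and 0.0062 in V1. For the eIF2B group it was −0.062 in C0 and 0.10 in C1, and for the eEF1 group −0.023 and 0.15. For the eIF1 group it was 0.11 and 0.17, for the eIF2 group 0.10 and 0.14, for the eIF3 core 0.071 and 0.12, and for the eIF5, eIF5B and eIF6 group 0.12 and 0.068, in each above both DMSO libraries. For eEF2 and its kinase it was −0.086 and −0.087, below both, but this group holds 2 genes and EEF2 itself overlapped. The separation of these medians was not tested. Among single genes, 43.2% of all tested had no overlap, and 52.2% of those with a mean of at least 100 CPM. The summed FPKM of all factor genes was 19002 and 20681 with clofarabine and 19017 and 19459 with DMSO, so that C0 lay at the level of V0.

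The genes that surround the factors in translation control showed no call either. None of 13 genes of the eIF2 kinases, phosphatase subunits and the ATF4 arm, of 12 genes of mTORC1 and eIF4E or eIF4A control, of 13 mRNA-bound helpers, of 12 genes of termination, selenocysteine and hypusine or diphthamide formation and of 9 mitochondrial translation factors was called by edgeR, where 2.57% of all genes were. At an unadjusted p under 0.05 by edgeR these lists held 2, 2, 2, 1 and 1 genes in that order, where 14.2% of all genes passed. ATF3, a stress-responsive transcription factor, had the smallest p of its list, with 30.4 and 34.7 CPM in C0 and C1 against 25.1 and 26.5 in V0 and V1 (log2 fold change 0.34, SE 0.12, edgeR adjusted p = 0.150). It was called by edgeR without C0 (0.43, adjusted p = 0.0403), and without C1 its log2 fold change was 0.23 (0.484). MLST8, a subunit of the mTOR complexes, stood at 60.1 and 61.3 CPM against 67.2 and 72.2 (−0.20, SE 0.082, edgeR adjusted p = 0.255). Both had no overlap between the groups.

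In the remaining lists the genes of smallest p had log2 fold changes of either sign, and none passed the test. CTIF, an eIF4G-like scaffold of the nuclear cap-binding complex, stood at 10.8 and 9.52 CPM in C0 and C1 against 15.2 and 11.95 in V0 and V1 (log2 fold change −0.42, SE 0.17, edgeR adjusted p = 0.251). DPH2, an enzyme in the formation of diphthamide on eEF2, stood at 74.1 and 79.9 CPM against 84.3 and 90.2 (−0.18, SE 0.079, edgeR adjusted p = 0.302). MTRF1L, a mitochondrial release factor, stood at 93.2 and 94.2 CPM against 78.8 and 85.9 (0.18, SE 0.077, edgeR adjusted p = 0.273).

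The 7 factor genes that could not be tested were EIF3C, EIF3CL, EIF4EBP3, EIF4E1B, EIF1AY and the pseudogenes EEF1DP3 and EIF3IP1. EIF4E1B was given at most 2 fragments in a library, EEF1DP3 and EIF1AY at most 1, and EIF3IP1 none.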

How the data were processed

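RNA-seq of total RNA from 2 clofarabine and 2 DMSO samples was used; per the labels' protocols the libraries were directional. Reads had gone through Cuffdiff 2.2.1, TopHat2 2.0.13 and cutadapt 1.5 with hg19, per the submitters' processing notes; annotation, strand setting and handling of multiply matching fragments were not given in the labels. Per the file headers, the authors deposited estimated counts of fragments per gene and library, a scaled-fragment signal (estimated counts times a factor per library) and FPKM. Estimated counts were rounded; 11761 genes passed filterByExpr (minimum count 10), libraries were scaled by TMM (factors 0.968 to 1.02), and group was tested with edgeR 4.0.16 (R 4.3.3) by its quasi-likelihood test, adjusted over all genes. SE is the log2 fold change over the square root of F. Transcript length classes come from the ratio of the signal to FPKM. Settings tried were other scalings and filters, DESeq2 1.42.0, limma 3.58.1 on counts (voom) and on log2(FPKM + 1) and log2(FPKM + 0.1), each library left out, a replicate block, other thresholds, removal of a length trend (loess, span 0.3), thinning to equal depth and adding joined symbols. The scripts were tested on simulated data.

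The members, lists and tests were chosen with earlier results of these data known. Values in every library are given for called factor genes and, per group, for the tested gene of smallest p and that of highest mean FPKM, and for the gene of smallest p in each neighbouring list without a call; 5 more, of unadjusted p under 0.05, were added after their values were seen. Shared words and RefSeq starts were read from GENCODE 29 and RefSeq (GRCh38.p14), not hg19, and coordinates are of that build. Intervals cover the spread between these samples only. Some marker genes are not reported here.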

Additional observations from a re-analysis of the deposited data

How the results depend on the processing

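No factor gene was called under 15 of 19 alternatives. The exceptions were 1 call with no filter, 1 at an adjusted p threshold of 0.1, 3 with a replicate block (EEF1E1, EIF3E and EIF3M at edgeR adjusted p = 0.0368, 0.00793 and 0.0444), and 6 without C0; the other libraries left out gave 0. Over all genes, 478 were called with no filter, 168 by DESeq2, 56 on log2(FPKM + 1), 72 on log2(FPKM + 0.1), 128 at a threshold of 0.01, 466 at 0.1, 796 with the replicate block, and between 129 (without V1) and 633 (without C0) when a library was left out, against 302. The replicate numbers pair the samples only by number: the libraries' deviations had a correlation of 0.034 across genes, and the block, under which ATF3 was also called (edgeR adjusted p = 0.0381), leaves 1 residual degree of freedom.

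Of 31 genes followed, 7 changed sign under some setting, none of them called in any. With library sizes alone the log2 fold change was −0.00026 for EEF1A1, −0.0010 for EIF3I, −0.0052 for EIF4A1 and −0.030 for EIF4EBP1, which was −0.027 with the length trend removed. With each library left out it ran from −0.042 to 0.11 for EEF1A1, −0.064 to 0.15 for EIF3K, −0.027 to 0.091 for EIF3I, −0.037 to 0.094 for EIF4A1, −0.060 to 0.063 for EIF4EBP1, −0.041 to 0.25 for EIF5A2 and −0.070 to 0.022 for EIF5A. The cause was not tested. EIF4E3 and EIF5AL1, whose intervals reach past 1.5-fold, had 36 to 128 and 19 to 37 estimated fragments in a library.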
